A study of Ovis aries with 17 samples.

Results

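Dendritic cells grown in culture with GM-CSF (MoDC, 3 arrays) were compared with dendritic cells sorted from sheep blood and labelled as lacking the chemokine receptor XCR1 (XCR1- DC, 3 arrays). These 6 arrays, chosen by their titles alone, are part of a series of 17 one-colour arrays, 1 array for each RNA sample, which was made to place sheep mononuclear phagocytes beside their human and mouse counterparts. MoDC came from 3 independent cultures and are labelled as derived in vitro. By the study's text they were grown from bone marrow cells, not from purified blood monocytes. XCR1- DC were sorted from low density blood cells of several sheep by flow cytometry, as large CD11c-positive cells with high CD172 and low CADM1 that bore no B cell antigen, CD11b, γδ T cell receptor or CD45RB. The sort therefore used no antibody to XCR1, and it selected against the product of *ITGAM*, which is CD11b. RNA of distinct animals was mixed where a sort gave too little. The files name XCR1- DC replicate 2 and the XCR1+ DC array pools, so an array is not always 1 animal. The p-values rest on the spread between RNA samples within groups, estimated in common over all 17 arrays, not on these 6 arrays alone. The sheep that gave blood were Prealpe females, no breed or sex is given for the donors of MoDC, and no other treatment is given for these samples. Of the other subsets, spleen B lymphocytes (B, 4 arrays) entered as a check on the slides, and plasmacytoid dendritic cells (pDC), spleen macrophages (MP, 3 arrays each) and XCR1+ DC (1 array) are given for single genes.

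GM-CSF is a growth factor that drives monocytes and bone marrow precursors towards inflammatory dendritic cells and macrophages, and cultures with it are the usual source of dendritic cells for experiments in ruminants. Blood dendritic cells instead arise from bone marrow precursors under the control of FLT3 ligand, whose receptor FLT3 they carry. Conventional dendritic cells without XCR1 correspond to the subset called cDC2, which takes up antigen and primes helper T cells, whereas XCR1-positive cells correspond to cDC1, which depend on the transcription factors IRF8 and BATF3.

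MoDC and XCR1- DC shared no slide. The MoDC replicates lay on slides 1, 2 and 3, each with the B array of the same number, whereas the 3 XCR1- DC arrays lay on slide 4 with B replicate 4. No difference between the groups could therefore be taken within a slide, and slide and cell type cannot be told apart except through B replicate 4. The XCR1- DC replicates were closely alike, with Pearson's r across genes of 0.982 to 0.989 and a median SD of 0.21 on the log2 scale (n = 3). MoDC replicate 3 stood apart from the other MoDC arrays (r = 0.866 and 0.882, against 0.975 between replicates 1 and 2), and the median SD in MoDC was 0.70 (n = 3), so values without it are given for many of the genes described here. On the 6 arrays the 75th percentile of the signal ranged from 313 to 688 units of brightness, and 68% to 80.2% of spots were well above background.

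Levels are given below as log2 of the background-corrected signal minus the 75th percentile of that array, so that 0 is the brightness that 75 in 100 spots do not exceed, and they compare arrays for 1 probe, not probes with each other. A gene was called different at a limma adjusted p under 0.05 and a difference, MoDC minus XCR1- DC, of at least 1 in size. Where no array of the lower group had a probe well above background, the fold is a lower bound at this scaling and background correction, written "at least". Where only some arrays of the lower group had it above background, their number is given. The design carries probes of 60 bases. Those of 8 genes that the results turn on are shown, in the orientation of the deposited files, because the values belong to these stretches alone: the cytokines and the activin subunit, nuclear receptor and efflux pump higher in MoDC, then the receptor, globin and phosphorylase higher in XCR1- DC.
INHBA: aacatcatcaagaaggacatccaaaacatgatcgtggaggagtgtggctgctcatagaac
IL1A: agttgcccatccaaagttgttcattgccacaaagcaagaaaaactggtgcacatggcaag
IL1B: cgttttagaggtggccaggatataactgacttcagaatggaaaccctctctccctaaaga
PPARG: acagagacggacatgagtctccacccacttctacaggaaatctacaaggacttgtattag
ABCB1: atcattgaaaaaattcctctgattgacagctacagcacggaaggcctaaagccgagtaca
FLT3: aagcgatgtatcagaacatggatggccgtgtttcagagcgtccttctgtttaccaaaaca
HBB: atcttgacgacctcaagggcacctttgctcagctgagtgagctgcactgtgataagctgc
PYGM: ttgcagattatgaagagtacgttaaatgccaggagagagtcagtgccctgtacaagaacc

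The repeatability of such probes could be read from 22 pairs in which a gene with a symbol had a further probe of the same sequence. The differences measured by both probes of a pair lay apart by a median of 0.11 on the log2 scale, and by less than 0.6 in 21 pairs. The twin probes of *FLT3*, *ABCG2*, *CA1* and *INHBA* were among these. *SOX9* was the exception, with a gap of 0.97.

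Among the 11311 genes tested, 3782 were called (33.4%), of which 1489 were higher in MoDC (13.2%) and 2293 higher in XCR1- DC (20.3%). Only 270 of the tested genes had a symbol, of 425 on the array, and the rest did not pass the filter, which required signal above background on all arrays of 1 or more groups. Of those tested, 124 were called (45.9%), 68 higher in MoDC (25.2%) and 56 higher in XCR1- DC (20.7%). Genes with a symbol were thus called more often than the background share in the direction of MoDC and at a share near the background in the other direction. The median difference was -0.02 over genes with a symbol and -0.32 over all genes. The 3 arrays of each group did not overlap in 169 of the 270 genes with a symbol, called or not, while 50.1% of all genes tested had arrays that did not overlap (20.0% higher in MoDC and 30.1% higher in XCR1- DC). Called genes with a symbol whose fitted difference exceeded 4 on the log2 scale numbered 24 in the direction of MoDC and 6 in that of XCR1- DC, while over all genes the numbers were nearly even, 230 and 211. Some of these have a bound below the fitted fold, such as *SLPI* and *ABCB1*. The shares of all genes called, 13.2% higher in MoDC and 20.3% higher in XCR1- DC, are the background for each gene list below.

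The split of the calls moved with the scaling. Centring each array on its median, in place of the 75th percentile, raised the median difference of all genes by 0.51, and 64.1% of all calls were then higher in MoDC, against 39.4% before. Among genes with a symbol that setting gave 87 higher in MoDC and 38 higher in XCR1- DC. The shift was 0.20 after quantile normalization, 0.27 in the authors' series table, where 50.0% of all calls were higher in MoDC, and 0.12 after normexp background correction. In none of these 4 settings did any of the 124 called genes with a symbol turn its direction.

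**Figure D1:**
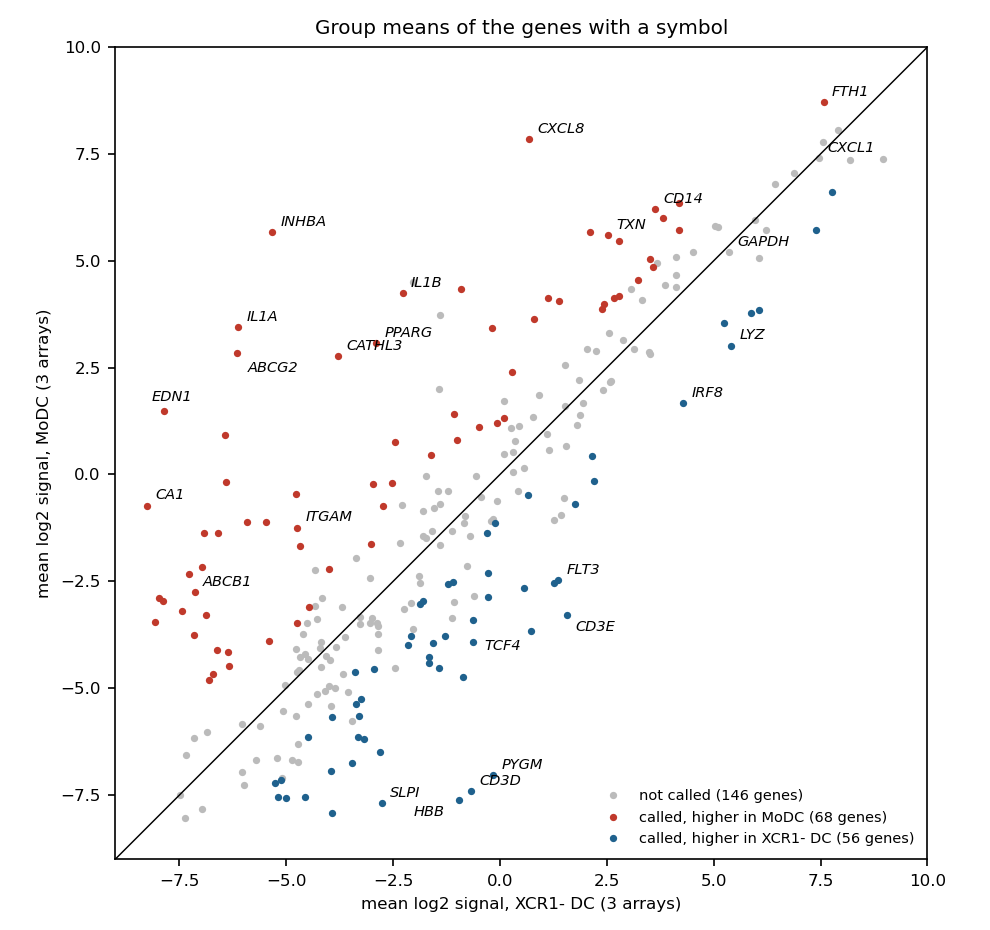
Mean log2 signal, relative to the 75th percentile of each array, in XCR1- DC (horizontal axis, 3 arrays) and MoDC (vertical axis, 3 arrays) for the 270 genes with a symbol. Points are genes and the line marks equal levels. The 68 red genes were called higher in MoDC, with *INHBA*, *IL1A*, *EDN1* and *ABCG2* farthest from the line, and the 56 blue genes were called higher in XCR1- DC, with *PYGM*, *CD3D* and *HBB* farthest.

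The efflux pumps *ABCG2* and *ABCB1*, the cytokine gene *IL1B* and the receptor gene *FLT3* were examined first. *ABCG2* encodes the breast cancer resistance protein, a pump that exports drugs and porphyrins. Its levels were 2.42, 3.22 and 2.89 on the MoDC arrays and -6.35, -6.78 and -5.31 on the XCR1- DC arrays. The groups lay far apart, and no XCR1- DC array was well above background, so *ABCG2* was at least 445-fold higher in MoDC (difference 8.99 ± 0.41 SE, adjusted p = 1.06e-08). The difference was 5.61, adjusted p = 1.06e-09 after normexp background correction and 6.75, adjusted p = 8.44e-11 in the series table, both under that bound. *ABCB1*, which encodes the multidrug pump P-glycoprotein, was at -1.21, -1.70 and -5.34 on the MoDC arrays and -7.18, -7.05 and -7.20 on the XCR1- DC arrays. MoDC replicate 3 was far below the other cultures and not above background, but still higher than every XCR1- DC array. The difference was 4.40 ± 0.81 (SE; at least 9.22-fold, adjusted p = 0.000916), and without MoDC replicate 3 it was 5.69, adjusted p = 3.69e-06. It was 1.21, adjusted p = 0.0406 after normexp and 2.86, adjusted p = 2.05e-06 in the series table, again under the bound. When only the 6 arrays were fitted, the limma adjusted p of *ABCB1* was 0.0209. *ABCG2* and *ABCB1* were the 2 measured members of the list of ABC transporters, and both were called.

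*IL1B*, the gene of the inflammatory cytokine interleukin-1β, was at 5.39, 5.09 and 2.23 on the MoDC arrays and -2.50, -2.22 and -2.12 on the XCR1- DC arrays. All cultures exceeded all blood cells, with replicate 3 again the lowest culture, and the difference was 6.52 ± 0.70 (SE; 91.6-fold, adjusted p = 1.11e-05), or 7.52 without replicate 3. *FLT3* ran the other way, at -2.60, -2.98 and -1.85 on the MoDC arrays and 1.5, 1.30 and 1.26 on the XCR1- DC arrays. Its difference was -3.83 ± 0.45 (SE; 14.2-fold, adjusted p = 2.41e-05). B replicate 4 was lower for *FLT3* than the other B arrays by 1.31, which is the direction opposite to that of XCR1- DC on the same slide, and with slide as a block the difference grew to -5.14, adjusted p = 0.000345. In the same fit, the differences were 9.68 for *ABCG2*, 5.19 for *ABCB1* and 6.93 for *IL1B*, and all 4 genes were called.

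The same could be read from the B array on each slide. *FLT3* was 2.35, 1.02 and 2.34 relative to the B array of the same slide in MoDC, against 7.19, 6.99 and 6.95 in XCR1- DC. *ABCG2* was 7.21, 7.41 and 6.73 relative to the B array of the same slide in MoDC, against -2.77, -3.20 and -1.73 in XCR1- DC. *ABCB1* was 4.20, 4.93 and 2.01 relative to the B array of the same slide in MoDC, against -1.51, -1.39 and -1.54 in XCR1- DC, and *IL1B* was 8.08, 9.35 and 6.36 relative to the B array of the same slide in MoDC, against 0.78, 1.07 and 1.16 in XCR1- DC. For each of these genes the 3 values of MoDC lay outside those of XCR1- DC. The values of XCR1- DC share 1 B array, so they are not independent.

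Across the whole series, *ABCG2* was highest in MoDC (2.85 ± 0.40, SD, n = 3), and its other group means lay between -6.15 in XCR1- DC and -4.10 in B. *ABCB1* was at -2.37 ± 0.37 in pDC (SD, n = 3), inside the range of MoDC (-2.75 ± 2.25, SD, n = 3), and lowest in XCR1- DC. *IL1B* was next highest in MP, at 1.60 ± 0.95 (SD, n = 3) against 4.24 ± 1.74 in MoDC (SD, n = 3), and MoDC replicate 3 lay inside the range of MP. *FLT3* in XCR1- DC (1.35 ± 0.13, SD, n = 3) was exceeded by the XCR1+ DC array (2.69) and followed by pDC (-0.82 ± 0.58, SD, n = 3) and MP (-1.20 ± 0.45, SD, n = 3), which overlapped. MoDC, at -2.48 ± 0.57 (SD, n = 3), lay below these and above B (-4.71 ± 0.77, SD, n = 4). These are descriptions without a test.

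**Figure D2:**
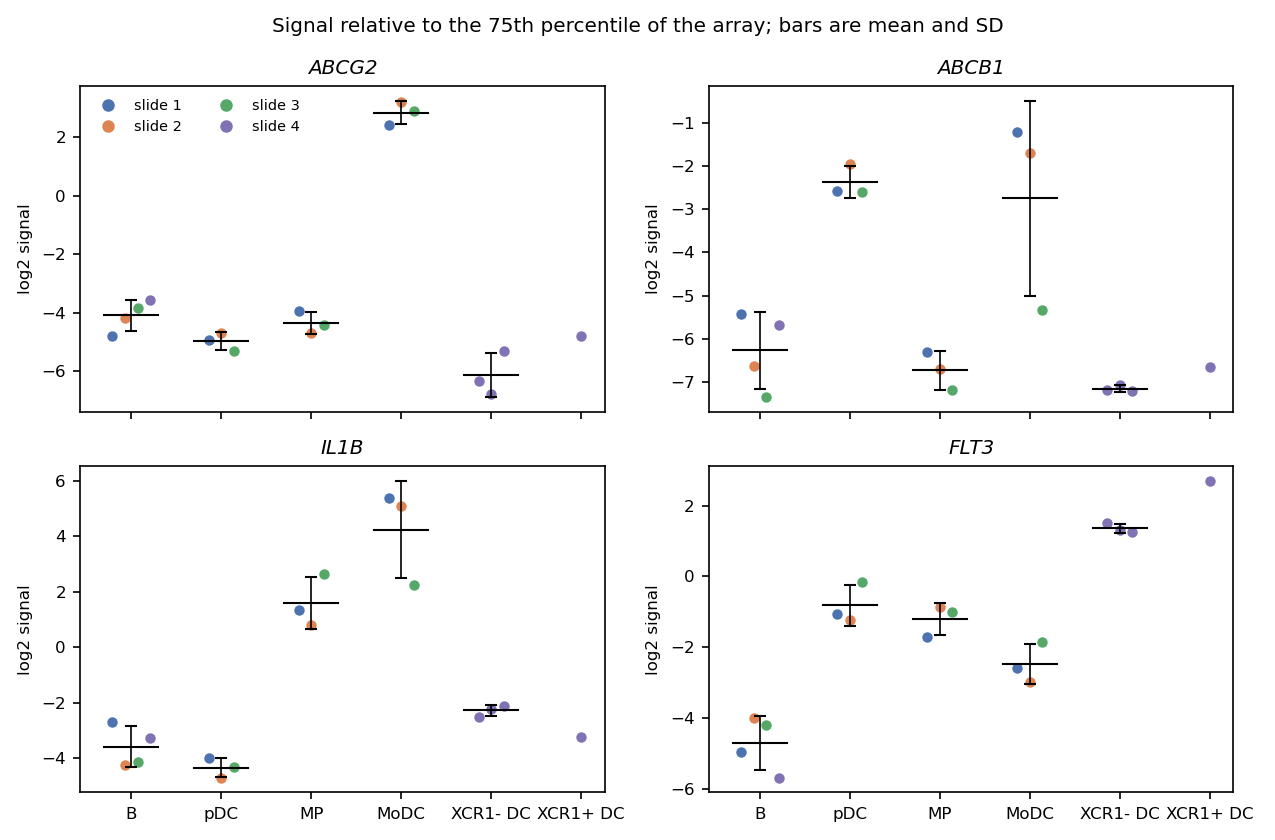
Log2 signal of *ABCG2*, *ABCB1*, *IL1B* and *FLT3* relative to the 75th percentile of the array (vertical axis) on each of the 17 arrays, by subset (horizontal axis). Points are arrays coloured by slide, lines are group means and bars are 1 SD. The MoDC arrays of *ABCG2* sit above 2.4 and all other arrays below 0, whereas *FLT3* is above 0 on the slide 4 arrays of XCR1- DC and XCR1+ DC only.

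Inflammatory cytokines and activation formed the largest list tested. Of its 14 genes, 7 were higher in MoDC, none was higher in XCR1- DC and 7 were not called, and the median difference was 1.84, against -0.32 for all genes. *PTGS2* stands in the list under both of its names, and 5 of the 7 calls held with slide as a block. *IL1A*, the gene of interleukin-1α, was at 3.87, 3.15 and 3.30 on the MoDC arrays and -5.99, -5.11 and -7.31 on the XCR1- DC arrays. In the main fit this was the largest difference of the list, 9.58 ± 0.88 (SE; 763-fold with 2 of 3 lower arrays above background, adjusted p = 2.43e-06), and it was 6.01 after normexp background correction. B replicate 4 lay 2.68 above the other B arrays for it, and with slide as a block the difference was 12.26, adjusted p = 0.000248. *CXCL8*, which encodes the chemokine that attracts neutrophils, was at 7.04, 7.30 and 9.20 on the MoDC arrays and 0.42, 1.04 and 0.60 on the XCR1- DC arrays. Blood cells expressed it well above background, and the cultures exceeded them by 7.16 ± 0.92 (SE; 143-fold, adjusted p = 4.82e-05), or by 6.48, adjusted p = 0.000302 without MoDC replicate 3. The difference of *CXCL8* was larger than that of *IL1A* after normexp, at 7.08 against 6.01. It was slightly larger in the series table as well, at 7.30 against 7.18.

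*TNF*, encoding tumour necrosis factor, was at 3.52, 3.83 and 4.82 on the MoDC arrays and 1.64, 1.21 and 1.29 on the XCR1- DC arrays, with a difference of 2.68 ± 0.44 (SE; 6.39-fold, adjusted p = 0.000376). It was not called with slide as a block (2.68, adjusted p = 0.0624). A dimmer probe of *TNF* gave 0.86 and correlated with the first at r = 0.458 across the 17 arrays, so the probes disagreed in size. The other called genes were *ICAM1*, the ligand of leukocyte integrins (difference 2.07, 4.2-fold, adjusted p = 0.0144), *IL18* (1.81, 3.52-fold, adjusted p = 0.00388) and *IL15*, a growth factor of NK and memory T cells (1.86, 3.62-fold with 1 of 3 lower arrays above background, adjusted p = 0.0248). *ICAM1* was not called with slide as a block (2.0, adjusted p = 0.258), nor without MoDC replicate 1 (1.68, adjusted p = 0.052) or 2 (1.73, adjusted p = 0.0599), and was 2.80, adjusted p = 0.000943 without replicate 3. B replicate 4 lay 1.88 above the other B arrays for *IL15*, which was not called without MoDC replicate 3 (1.75, adjusted p = 0.0544) and lost its call without MoDC replicate 2 or XCR1- DC replicate 1 or 3 as well, and after normexp its difference was 0.31, adjusted p = 0.475. Of the genes not called, *CXCL1* was bright on every array and nearly level, at 7.53, 6.26 and 8.42 on the MoDC arrays and 7.20, 7.29 and 7.93 on the XCR1- DC arrays. *CXCL10*, the interferon-induced chemokine, had a difference of -2.38, adjusted p = 0.0695, and without MoDC replicate 3 it was called higher in XCR1- DC (-3.24, adjusted p = 0.0217). It was called in that direction after normexp (-2.03, adjusted p = 0.0223) and in the series table (-2.66, adjusted p = 0.00432) as well. *IL10*, *VEGFA* and *IL6* had differences of 1.70, 2.11 and 1.05 with adjusted p-values of 0.0547, 0.0677 and 0.23. *IL10* was called higher in MoDC under each of the 4 other settings of scaling and background (the median of each array, quantile normalization, the series table and normexp), and *VEGFA* under the first 3.

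**Figure D3:**
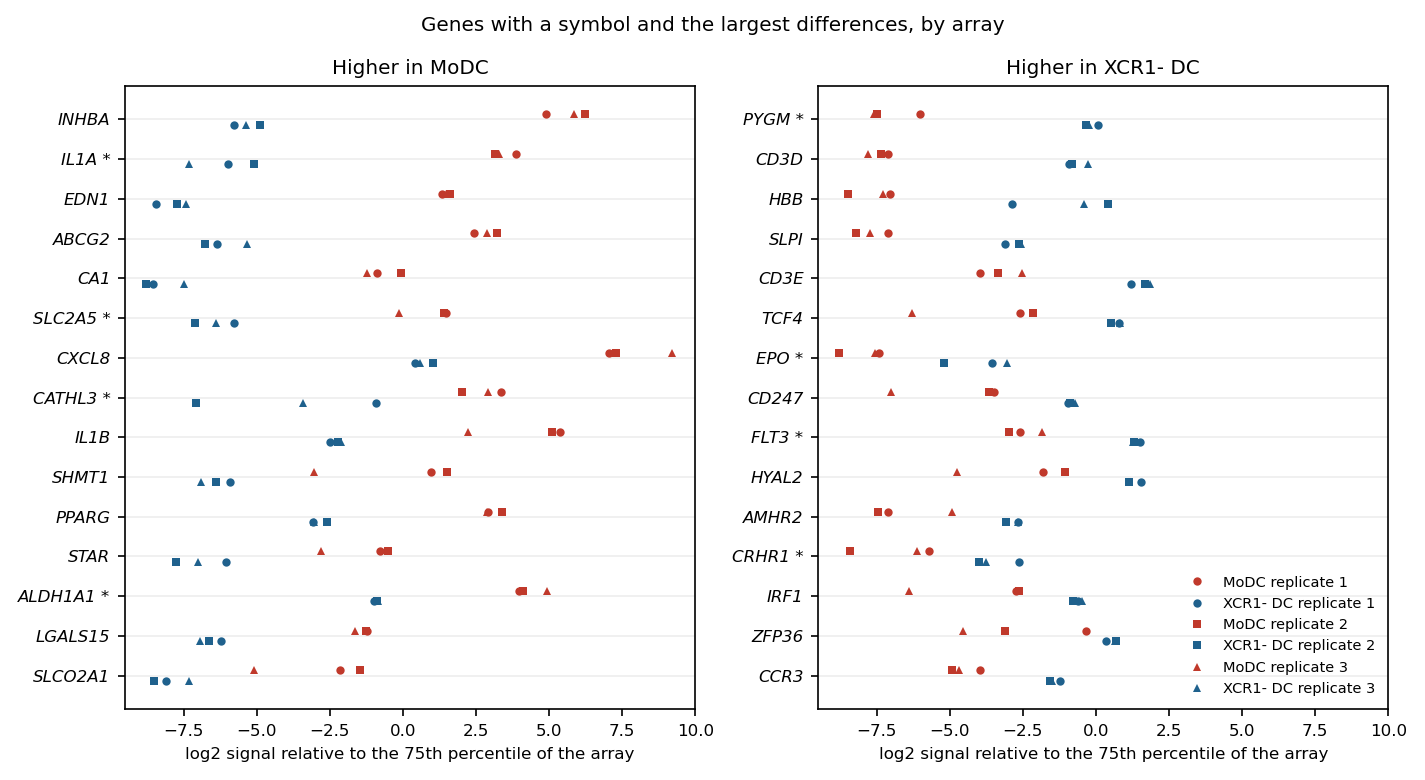
Log2 signal relative to the 75th percentile of the array (horizontal axis) on the 3 MoDC arrays (red) and 3 XCR1- DC arrays (blue) for the 15 genes with a symbol and the largest called differences in each direction. The marker shape gives the replicate, and an asterisk marks the 8 genes for which B replicate 4 lay at least 1 from the mean of the other B arrays and outside their range. The arrays of the groups do not overlap for any of these genes, which is how they were chosen, and MoDC replicate 3 lies well below the other cultures for *IL1B*, *SHMT1*, *TCF4* and *IRF1*, among others.

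Genes of the activin and TGF-β family were called in both directions. Of the 13 genes of the list tested, 2 were higher in MoDC, 5 were higher in XCR1- DC and 6 were not called (median -0.59, against -0.32 for all genes), and 2 of the 7 calls, *INHBA* and *BMP7*, held with slide as a block. The list is not the whole family. Outside it the probe named *AMHR2* was called higher in XCR1- DC, but whether its signal comes from that gene was not tested. *AMH*, *ACVRL1*, *BMP1* and *BAMBI*, looked up after the values were seen, were not called (-0.37, adjusted p = 0.641, -0.89, adjusted p = 0.471, 0.37, adjusted p = 0.725 and -0.23, adjusted p = 0.784). *INHBA* encodes the subunit of activin A, a cytokine that acts on macrophages and dendritic cells. It was at 4.90, 6.24 and 5.86 on the MoDC arrays and -5.76, -4.89 and -5.37 on the XCR1- DC arrays, and the difference of 11.00 ± 0.57 (SE; 2054-fold with 2 of 3 lower arrays above background, adjusted p = 1.47e-08) was the largest of any gene with a symbol. That rank did not hold with slide as a block, where *IL1A* (12.26) exceeded *INHBA* (11.14). A further *INHBA* probe of the same sequence gave 10.81. *FST*, encoding follistatin, which binds and blocks activin, was also higher in MoDC (2.01, 4.02-fold with 1 of 3 lower arrays above background, adjusted p = 0.0461), but it was marked for a shift of -1.65 in B replicate 4, was not called without MoDC replicate 3 (1.62, adjusted p = 0.132) and kept its call, of the 6 settings that leave out 1 array, only without MoDC replicate 1 or XCR1- DC replicate 2.

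The 5 members higher in XCR1- DC were ligands and signal transducers of the BMP branch and an activin receptor. The type II activin receptor *ACVR2B* was at -3.49, -4.44 and -5.32 on the MoDC arrays and -1.77, -1.64 and -1.59 on the XCR1- DC arrays, a difference of -2.75 ± 0.51 (SE; 6.72-fold with 2 of 3 lower arrays above background, adjusted p = 0.000955). *BMP7* differed by -2.83 ± 0.61 (SE; 7.09-fold with 1 of 3 lower arrays above background, adjusted p = 0.00267) and *BMP6* by -1.99 ± 0.63 (SE; 3.97-fold with 2 of 3 lower arrays above background, adjusted p = 0.0246). Of the 6 settings that leave out 1 array, *BMP6* kept its call only without MoDC replicate 3. *BMP4* (-2.99, at least 2.23-fold, adjusted p = 0.00567) and *SMAD1*, a transducer of BMP signals (-2.37, at least 1.43-fold, adjusted p = 0.00555), were not above background on any MoDC array, and B replicate 4 lay 2.42 and 1.95 above the other B arrays for them, in the direction of XCR1- DC. Neither was called with slide as a block (-0.57 and -0.42). A further *BMP4* probe was below background in both groups. None of the 3 BMP ligands exceeded -2.97 on an XCR1- DC array, so their probes were dim, which does not give the amount of transcript. *ACVR1*, *BMPR1B*, *BMPR2*, *GDF9*, *SMAD4* and *SMAD5* were not called, with differences from -1.25 to 0.39.

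Lipid and sugar handling came next. *PPARG*, a nuclear receptor that drives lipid uptake and storage and that GM-CSF induces in alveolar macrophages, was at 2.91, 3.39 and 2.90 on the MoDC arrays and -3.08, -2.60 and -3.03 on the XCR1- DC arrays. Replicates were tight in both groups and the difference was 5.96 ± 0.43 (SE; 62.4-fold, adjusted p = 2.5e-07). *LPL*, which encodes the lipase that releases fatty acids from lipoproteins, differed by 4.81 ± 0.66 (SE; 28.1-fold with 1 of 3 lower arrays above background, adjusted p = 8.54e-05), with the cultures spread from -2.72 in replicate 2 to 0.92 in replicate 3 and a difference of 3.79 without the latter. *ABHD5*, a co-activator of triglyceride lipolysis, differed by 2.01 ± 0.29 (SE; 4.03-fold, adjusted p = 0.000126). These were the 3 genes called among 9 of lipid metabolism, all higher in MoDC (median 0.93, against -0.32 for all genes), and *PPARG* and *LPL* held their calls with slide as a block. The 6 others, *CPT1A*, *SCD*, *PLIN2*, *ACLY*, *DGAT1* and *CPT1B*, had differences from -1.92 to 1.43. Without MoDC replicate 3, *PLIN2*, the coat protein of lipid droplets (1.18, adjusted p = 0.0294), and the desaturase *SCD* (1.93, adjusted p = 0.0277) were called higher in MoDC as well.

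Of 5 genes in the list of glycolysis and hypoxia, 2 were called, both sugar transporters and both higher in MoDC, and neither held its call with slide as a block. *SLC2A3*, the glucose transporter GLUT3, was at 6.33, 5.04 and 5.77 on the MoDC arrays and 3.95, 4.44 and 4.15 on the XCR1- DC arrays, a difference of 1.53 ± 0.42 (SE; 2.89-fold, adjusted p = 0.0124), or 1.18, adjusted p = 0.389 with the block. *SLC2A5*, the fructose transporter GLUT5, was at 1.46, 1.42 and -0.13 on the MoDC arrays and -5.78, -7.11 and -6.40 on the XCR1- DC arrays, a difference of 7.35 ± 1.32 (SE; at least 105-fold, adjusted p = 0.000753). B replicate 4 was 3.45 below the other B arrays for *SLC2A5*, and with slide as a block its difference was 3.90, adjusted p = 0.264. *GAPDH* was at 7.04, 6.02 and 2.53 on the MoDC arrays and 5.21, 5.44 and 5.44 on the XCR1- DC arrays. It was high on MoDC replicates 1 and 2 and low on replicate 3, and its difference of -0.17, adjusted p = 0.883 turned to 1.16, adjusted p = 0.0305 without that array.

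Receptors and transcription factors of dendritic cells were called in both directions. Among 7 growth factor and cytokine receptors, *FLT3* and *IFNAR2*, a subunit of the type I interferon receptor (-1.07, 2.1-fold, adjusted p = 0.00772), were higher in XCR1- DC and none was higher in MoDC (median -0.68). This share is near that of all genes, and *IFNAR2* lost its call with slide as a block (-0.65, adjusted p = 0.418), without MoDC replicate 1 (-0.93, adjusted p = 0.0241) or XCR1- DC replicate 2 (-0.93, adjusted p = 0.0416), and under each of the 4 other scalings, to -0.57, adjusted p = 0.222 with the median of each array. *CSF1R*, the receptor of macrophage colony-stimulating factor, was not called (-0.68, adjusted p = 0.448), and neither were *IL2RA* (1.57, adjusted p = 0.106), *GHR*, *IFNAR1* and *MET*. Without MoDC replicate 3, *GHR*, the growth hormone receptor, was called higher in XCR1- DC (-2.42, adjusted p = 0.0262). *IL2RA* was called higher in MoDC without MoDC replicate 2 (2.24, adjusted p = 0.0363), and was 0.72 without replicate 3. Among 10 transcription factors of dendritic and myeloid cells, 4 were higher in XCR1- DC and 2 in MoDC (median -0.65), of which *PPARG* and *IRF8* held with slide as a block. Besides *PPARG*, *ID2*, an inhibitor of E proteins, was higher in MoDC (1.26, 2.39-fold, adjusted p = 0.00733), though not with the block (0.55, adjusted p = 0.544), nor after quantile normalization (0.74, adjusted p = 0.044) or in the series table (0.88, adjusted p = 0.00834).

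*TCF4*, which encodes the E protein E2-2, was at -2.59, -2.15 and -6.27 on the MoDC arrays and 0.79, 0.53 and 0.83 on the XCR1- DC arrays, a difference of -4.39 ± 0.75 (SE; 20.9-fold with 2 of 3 lower arrays above background, adjusted p = 0.000509). MoDC replicate 3 was not above background, and without it the difference was -3.08, adjusted p = 1.2e-05. *TCF4* is also a marker of pDC, where it was at 1.19 ± 0.54 (SD, n = 3). The sort of XCR1- DC excluded cells with CD45RB, by which the study selected pDC. The paper proposes that pDC probably remained among its sheep cDC2 candidates all the same, though likely to a limited extent. The part of pDC among the sorted XCR1- DC in this difference was not tested here. *IRF8*, a factor required for several dendritic cell lineages, was at 1.17, 1.24 and 2.59 on the MoDC arrays and 4.44, 4.10 and 4.33 on the XCR1- DC arrays. All XCR1- DC arrays exceeded all cultures, with a difference of -2.62 ± 0.41 (SE; 6.15-fold, adjusted p = 0.000271), and a further probe of *IRF8* gave -3.56. The regulators *AHR* (-0.87, adjusted p = 0.0753) and *IRF2* (0.96, adjusted p = 0.0318) were not called, but without MoDC replicate 3 they were, at -1.30, adjusted p = 0.00438 and 1.29, adjusted p = 0.00297. *IRF1* was at -2.73, -2.62 and -6.40 on the MoDC arrays and -0.63, -0.79 and -0.49 on the XCR1- DC arrays, a difference of -3.28 ± 0.84 (SE; 9.72-fold with 2 of 3 lower arrays above background, adjusted p = 0.00789) of which 2.04 on the log2 scale remained without MoDC replicate 3 (adjusted p = 0.0169). *STAT5A*, a transducer of the GM-CSF receptor, was lower in the cultures (-1.61, 3.04-fold with 2 of 3 lower arrays above background, adjusted p = 0.0107). *BATF3* was bright in both groups and not called, at 2.46, 1.5 and 1.96 on the MoDC arrays and 2.10, 2.75 and 2.36 on the XCR1- DC arrays.

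The label of the blood cells was checked against the genes of XCR1-positive dendritic cells. *XCR1* was at -3.38, -4.12 and -4.49 on the MoDC arrays and -1.58, -2.63 and -2.29 on the XCR1- DC arrays, a difference of -1.83 ± 0.45 (SE; 3.56-fold, adjusted p = 0.00641), and was 2.61 on the XCR1+ DC array. The call was lost after normexp (-0.95, adjusted p = 0.0276) and in the series table (-0.87, adjusted p = 0.0211). XCR1- DC thus carried more *XCR1* signal than MoDC, but each of their arrays was far below the XCR1+ DC array, and B, at -3.48 ± 0.64 (SD, n = 4), was next to them. *CLEC9A* was not above background on any MoDC or XCR1- DC array and was at -1.31 on the XCR1+ DC array. *CADM1*, for which the cells were sorted low, was not called (0.76, adjusted p = 0.368). The 5 measured markers of XCR1-positive cells were summed on the linear scale relative to the 75th percentile, so that brighter probes weigh more. The summed level was 24.4 to 26.7 on the XCR1- DC arrays, 5.8 to 11 on the MoDC arrays and 174 on the XCR1+ DC array. On the pDC arrays it was 23.75 to 50.5, a range that holds that of XCR1- DC.

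Surface molecules of monocytes and macrophages differed in part. *CD14*, the co-receptor for bacterial lipopolysaccharide, was at 5.87, 6.03 and 6.75 on the MoDC arrays and 3.62, 3.58 and 3.69 on the XCR1- DC arrays. It was bright in both groups and higher in every culture, by 2.58 ± 0.36 (SE; 5.99-fold, adjusted p = 0.00011), and a dimmer *CD14* probe gave 2.15. *ITGAM* was at -0.85, -1.21 and -1.67 on the MoDC arrays and -5.04, -4.44 and -4.77 on the XCR1- DC arrays, a difference of 3.51 ± 0.39 (SE; 11.4-fold, adjusted p = 1.49e-05) in the direction that the sort against CD11b sets, so it is no independent result. *LYZ*, the lysozyme gene, was higher in XCR1- DC, at 3.95, 3.45 and 1.63 on the MoDC arrays and 5.55, 5.27 and 5.38 on the XCR1- DC arrays (-2.39, 5.24-fold, adjusted p = 0.00416), with -1.70, adjusted p = 0.0106 without MoDC replicate 3. Of the 4 markers of monocytes and macrophages, 2 were thus higher in MoDC, 1 in XCR1- DC and *CSF1R* was not called, and their summed level was 74.5 to 111 in MoDC and 50.5 to 59.5 in XCR1- DC. *TLR2*, the receptor for bacterial lipopeptides (0.44, adjusted p = 0.485), and *TLR9*, the receptor for unmethylated DNA (-0.98, adjusted p = 0.187), were not called, which left *CD14* as the called gene among 3 pattern recognition receptors.

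No difference was called among the 3 tested genes of antigen presentation and costimulation. *CD86*, the ligand of CD28 on T cells, was at 4.06, 4.27 and 4.84 on the MoDC arrays and 4.17, 4.23 and 3.98 on the XCR1- DC arrays. The arrays of the groups overlapped, and the difference was 0.26 ± 0.29 (SE, adjusted p = 0.498). *CD80* (-0.20, adjusted p = 0.719) and *B2M*, named B2MG in the files (0.23, adjusted p = 0.686), overlapped as well. The list holds no gene of MHC class II that was tested, but the array names 1 further probe *MHC2*, given here after its values were seen. It was at -3.08, -2.61 and -3.37 on the MoDC arrays and -1.74, -2.57 and -1.93 on the XCR1- DC arrays, so the groups did not overlap, and the difference of -0.94, adjusted p = 0.267 was not called. Among 7 genes of adhesion and migration, *ITGAM* was higher in MoDC, *XCR1* and the integrin *ITGAL* (-1.34, 2.53-fold, adjusted p = 0.0452) were higher in XCR1- DC, and *SELP*, *CADM1*, *ITGB2* and *TIMP1* were not called. *ITGAL* was not called without MoDC replicate 3 (-0.78, adjusted p = 0.166), nor without any other array but MoDC replicate 1. *ITGB2*, the shared β2 integrin chain (1.31, adjusted p = 0.00469), and the selectin *SELP* (1.44, adjusted p = 0.0397) were called higher in MoDC without replicate 3.

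Genes of antimicrobial defence and iron handling were higher in MoDC in 4 of 7 cases and higher in XCR1- DC in 1 (median 3.23, against -0.32 for all genes), and 1 of the 5 calls, that of *FTH1*, held with slide as a block. *SLC11A1*, which encodes the phagosomal metal transporter NRAMP1, was at 4.96, 5.11 and 6.33 on the MoDC arrays and 2.67, 2.78 and 2.87 on the XCR1- DC arrays, a difference of 2.69 ± 0.73 (SE; 6.46-fold, adjusted p = 0.0109). *FTH1*, the ferritin heavy chain that stores iron, differed by 1.14 ± 0.31 (SE; 2.2-fold, adjusted p = 0.0103). Without MoDC replicate 3 its difference was 0.96, adjusted p = 0.0225, under the size required for a call, and without MoDC replicate 1 it was also under that size (1.0, adjusted p = 0.0311). *LTF*, lactoferrin, was at 1.54, -0.20 and 0.96 on the MoDC arrays and -3.22, -2.19 and -1.97 on the XCR1- DC arrays (3.23, 9.37-fold, adjusted p = 0.00361). It was marked for a shift of -1.90 in B replicate 4, and with slide as a block its difference was 1.32, adjusted p = 0.53.

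The cathelicidins, antimicrobial peptides of granulocytes and activated myeloid cells, were bright in all cultures and uneven in the blood cells. *CATHL3* was at 3.35, 2.02 and 2.93 on the MoDC arrays and -0.90, -7.07 and -3.40 on the XCR1- DC arrays. It was called (6.55, 94-fold with 2 of 3 lower arrays above background, adjusted p = 0.0121), although the XCR1- DC arrays spread from -7.07 to -0.90. Without XCR1- DC replicate 2 it was not called (4.92, adjusted p = 0.0645), nor was it with slide as a block (4.63, adjusted p = 0.445). *BAC5* was at 4.06, 3.09 and 4.05 on the MoDC arrays and 1.42, -4.70 and -0.91 on the XCR1- DC arrays and *SC5* at 1.97, 1.15 and 2.91 on the MoDC arrays and 1.08, -3.70 and -1.67 on the XCR1- DC arrays. Neither passed (5.13, adjusted p = 0.0729, and 3.44, adjusted p = 0.0956), nor did *CATHL1B*, named here after its values were seen (6.55, adjusted p = 0.075). *CATHL3* and *SC5* were marked, with B replicate 4 lying 1.93 and 1.40 below the mean of the other B arrays. In all 4 genes XCR1- DC replicate 1 was the highest and the pooled replicate 2 the lowest blood array. Among the B arrays, replicate 3 was the highest for *CATHL3*, at -2.57 against -7.63 to -7.01 on the others. These genes are close relatives, and the 4 probes share runs of 7 to 12 bases with each other, so signal from 1 family member on the probe of another was not tested. The summed level of the 2 granulocyte markers measured, *BAC5* and *LTF*, was 9.36 to 19.6 in MoDC and 0.257 to 2.78 in XCR1- DC. Other defining markers of granulocytes were not measured by a named probe, and the part of such cells in these results was not tested.

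Genes of growth and survival followed. *PCNA*, a clamp of DNA replication, was at 3.11, 3.55 and 4.27 on the MoDC arrays and 0.96, 0.87 and 0.53 on the XCR1- DC arrays, a difference of 2.86 ± 0.51 (SE; 7.25-fold, adjusted p = 0.00076), and *MKI67*, the proliferation marker named KI67 in the files, was at -2.0, -3.82 and -4.04 on the MoDC arrays and -6.71, -6.61 and -7.34 on the XCR1- DC arrays (3.60, at least 6.33-fold, adjusted p = 0.00221). Both were marked for shifts in B replicate 4, of -1.39 and -1.33, and neither was called with slide as a block (1.46 and 2.27).

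*TXN*, which encodes thioredoxin, a reductant of protein thiols, was at 5.29, 5.40 and 6.11 on the MoDC arrays and 2.52, 2.64 and 2.41 on the XCR1- DC arrays. The spread was small in both groups, and the difference was 3.08 ± 0.26 (SE; 8.44-fold, adjusted p = 1.11e-06). *BCL2L1*, which protects against apoptosis, was at -1.27, -1.12 and -2.64 on the MoDC arrays and -4.87, -4.96 and -4.23 on the XCR1- DC arrays (3.01, 8.04-fold, adjusted p = 0.00253). *FASLR*, as the files name it (1.79, 3.46-fold, adjusted p = 0.000908), and *BAX*, which promotes apoptosis (1.27, 2.41-fold, adjusted p = 0.0234), were also higher in MoDC. Without MoDC replicate 3, *BAX* was not called (0.86, adjusted p = 0.0735), and it lost its call without MoDC replicate 2 and XCR1- DC replicate 1 or 3 as well. Of the 7 genes of stress, apoptosis and redox, 4 were thus higher in MoDC and 1 in XCR1- DC, and *MCL1* and *BCL2* were not called. With slide as a block, 1 of these 5 calls held, that of *TXN*.

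No gene was called in 3 further lists. Of the 4 interferon response genes, *CXCL10* had the largest difference (-2.38, adjusted p = 0.0695), and *MX1*, *MX2* and *ISG15* had differences of 0.64, 0.35 and -0.47. For *MX2* and *ISG15*, B replicate 4 lay 2.29 and 2.88 above the mean of the other B arrays but within their range. In the list of prostaglandin and leukotriene synthesis, *PTGS1*, the constitutive cyclooxygenase, was at -2.70, -3.19 and -2.67 on the MoDC arrays and -0.51, -0.50 and -0.83 on the XCR1- DC arrays. The arrays did not overlap, but the difference did not pass (-2.24, adjusted p = 0.102), and the B arrays spread from 0.22 to 4.38. *PTGS2*, the inducible cyclooxygenase, had probes under the names PTGS2 and PGHS2 with the same 60 bases, which gave 1.07 and 0.82 and are 1 measurement in effect. *PTGDS* (-0.98, adjusted p = 0.392) and the adenosine receptor *ADORA3* (-0.43, adjusted p = 0.62) were not called either.

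**Figure D4:**
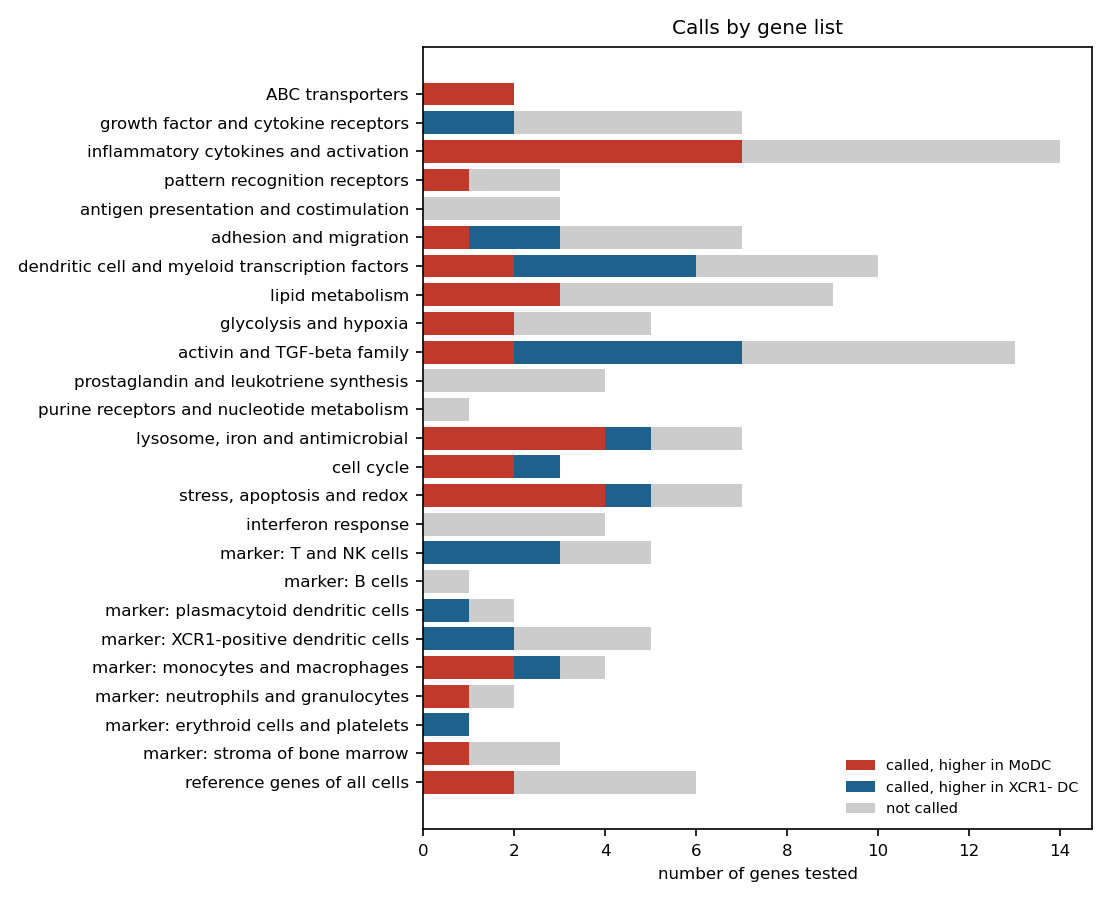
Number of genes tested (horizontal axis) in each gene list (vertical axis), split into genes called higher in MoDC (red), higher in XCR1- DC (blue) and not called (grey). Cytokine genes hold the most red calls, 7 of 14, and the activin and TGF-β family the most blue calls, 5 of 13, while antigen presentation, prostaglandin, purine and interferon genes hold none.

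Markers of other cell types differed as well. Of 5 markers of T and NK cells, *CD3D*, *CD3E* and *CD247*, which encode chains of the T cell receptor complex, were all higher in XCR1- DC, and *CTLA4* and *GNLY* were not called. Without MoDC replicate 3, *CTLA4*, an inhibitory receptor of T cells, was called in the other direction, higher in MoDC (1.53, adjusted p = 0.0154). *CD3D* was at -7.10, -7.36 and -7.78 on the MoDC arrays and -0.92, -0.81 and -0.28 on the XCR1- DC arrays, *CD3E* at -3.96, -3.36 and -2.53 on the MoDC arrays and 1.19, 1.66 and 1.85 on the XCR1- DC arrays and *CD247* at -3.50, -3.66 and -7.02 on the MoDC arrays and -0.96, -0.89 and -0.72 on the XCR1- DC arrays. The groups did not overlap for any of the 3 genes, and *CD3D* was not above background in any culture. The differences were -6.74 ± 0.47 (SE; at least 32.9-fold, adjusted p = 1.94e-07), -4.85 ± 0.50 (SE; 28.9-fold, adjusted p = 6.52e-06) and -3.87 ± 0.73 (SE; 14.6-fold with 2 of 3 lower arrays above background, adjusted p = 0.00105), the last being -2.72, adjusted p = 0.000497 without MoDC replicate 3 and not called with slide as a block. Signal of *CD3D* was higher still in B (2.26 ± 0.37, SD, n = 4) and in pDC (3.22 ± 0.42, SD, n = 3). The summed level of the 5 markers was 0.599 to 1.5 in MoDC, 4.46 to 5.95 in XCR1- DC, 7.31 to 9.5 in B and 44.7 to 49.3 in pDC. Of the antibodies of the sort, that to the γδ T cell receptor removes only a part of T cells, and the part of such cells in the results of XCR1- DC was not tested. In RNA from whole samples, fewer cells of a type and less RNA per cell cannot be told apart.

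*HBB*, the β-globin gene of red cells, was at -7.05, -8.47 and -7.30 on the MoDC arrays and -2.88, 0.42 and -0.42 on the XCR1- DC arrays. No culture was above background, the pooled XCR1- DC replicate 2 was highest, and the difference was -6.65 ± 0.82 (SE; at least 26.9-fold, adjusted p = 3.49e-05). The XCR1+ DC array, also a pool, was at 0.83 and pDC, also from blood, at -1.83 ± 1.42 (SD, n = 3), whereas the spleen subsets were at -5.71 ± 0.84 (B, SD, n = 4) and -6.24 ± 0.50 (MP, SD, n = 3). The other marker lists held few measured genes. The B cell marker *CR2* was not called (0.74, adjusted p = 0.562), with 0.155 to 0.693 in MoDC and 0.113 to 0.434 in XCR1- DC on the linear scale. The pDC markers *TCF4* and *TLR9* summed to 0.0251 to 0.231 in MoDC and 1.46 to 1.79 in XCR1- DC, which overlapped the 1.66 to 3.5 of the pDC arrays, and to 0.238 on the XCR1+ DC array. Of 3 markers of bone marrow stroma, *DCN*, the matrix proteoglycan decorin, was at -3.46, -3.66 and -3.20 on the MoDC arrays and -8.15, -8.69 and -7.37 on the XCR1- DC arrays (4.63, at least 5.7-fold, adjusted p = 3.52e-05, shift of -1.74 in B replicate 4), while *BGN* and *IGFBP5* were not called, and the 3 summed to 1.22 to 1.97 in MoDC and 1.04 to 1.65 in XCR1- DC. Of 6 reference genes, *TUBA1A* (2.15, adjusted p = 0.0025) and *ACTB* (1.21, adjusted p = 0.0169) were higher in MoDC, and *EEF1A1*, *HPRT1*, *B2M* and *GAPDH* were not called. Neither *TUBA1A* nor *ACTB* held with slide as a block, *ACTB* was not called without MoDC replicate 3 (1.0, adjusted p = 0.0429), and *EEF1A1* was then called higher in XCR1- DC (-2.27, adjusted p = 0.00975).

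Of the 15 genes most higher in MoDC, several belong to none of the lists. *EDN1*, the gene of the vasoconstrictor endothelin-1, was at 1.35, 1.61 and 1.49 on the MoDC arrays and -8.46, -7.73 and -7.41 on the XCR1- DC arrays. The cultures lay close together and no blood array was above background, so that the difference was 9.35 ± 0.61 (SE; at least 173-fold, adjusted p = 9.96e-08). *CA1*, carbonic anhydrase 1, was at -0.89, -0.07 and -1.23 on the MoDC arrays and -8.55, -8.77 and -7.49 on the XCR1- DC arrays (7.54, at least 37.4-fold, adjusted p = 3.36e-08). *ALDH1A1*, which makes retinoic acid, was at 3.99, 4.11 and 4.92 on the MoDC arrays and -1.0, -0.90 and -0.85 on the XCR1- DC arrays (5.26, 38.3-fold, adjusted p = 2.25e-05), with B replicate 4 lying 1.36 above the other B arrays. *LGALS15*, a galectin, was at -1.23, -1.27 and -1.63 on the MoDC arrays and -6.22, -6.64 and -6.93 on the XCR1- DC arrays (5.22, at least 23.8-fold, adjusted p = 1.02e-06). *SHMT1*, an enzyme of folate-dependent carbon metabolism (6.22, 74.7-fold with 1 of 3 lower arrays above background, adjusted p = 0.000179), *STAR*, which carries cholesterol into mitochondria (5.57, 47.4-fold with 1 of 3 lower arrays above background, adjusted p = 1.39e-05), and *SLCO2A1*, the prostaglandin transporter (5.07, at least 8.3-fold, adjusted p = 7.92e-05), were each lowest on MoDC replicate 3 among the cultures, and were higher without it, at 7.64, 6.28 and 6.16.

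Of the 15 genes most higher in XCR1- DC, *PYGM*, the glycogen phosphorylase first known from muscle, had the largest fitted difference. It was at -6.02, -7.47 and -7.60 on the MoDC arrays and 0.08, -0.34 and -0.23 on the XCR1- DC arrays. The difference was -6.87 ± 0.46 (SE; at least 46.7-fold, adjusted p = 1.42e-07), with B replicate 4 lying 1.0 above the other B arrays. Other genes led with slide as a block (*HBB* -7.22 and *CD3D* -7.08, against -5.86 for *PYGM*), after quantile normalization or normexp, and in the series table. *SLPI*, an inhibitor of leukocyte proteases, was at -7.12, -8.22 and -7.73 on the MoDC arrays and -3.10, -2.62 and -2.57 on the XCR1- DC arrays (-4.93, at least 7.72-fold, adjusted p = 5.01e-07). *CCR3*, the eotaxin receptor, was at -3.97, -4.92 and -4.69 on the MoDC arrays and -1.22, -1.59 and -1.49 on the XCR1- DC arrays (-3.09, 8.53-fold, adjusted p = 2.58e-05), and *ZFP36*, which promotes the decay of cytokine mRNA, at -0.33, -3.10 and -4.56 on the MoDC arrays and 0.36, 0.68 and 0.67 on the XCR1- DC arrays (-3.23, 9.41-fold, adjusted p = 0.00623). *ZFP36* came close to the blood cells on MoDC replicate 1. Its difference was -4.40, adjusted p = 0.000106 without that array and -2.29, adjusted p = 0.0218 without replicate 3. *HYAL2*, a hyaluronidase (-3.80, 14-fold, adjusted p = 0.000942), and *AMHR2* (-3.68, 12.8-fold with 1 of 3 lower arrays above background, adjusted p = 0.00827) completed the genes without a mark for a slide shift. Without MoDC replicate 3 they differed by -2.70 and -4.48. *AMHR2* is the name of the receptor of anti-Müllerian hormone, a member of the TGF-β receptor family outside the list above. The probe so named is tied to a predicted non-coding record, and whether its signal comes from that gene was not tested. *EPO*, erythropoietin (-3.98, at least 3.42-fold, adjusted p = 0.000707), and *CRHR1*, a receptor of corticotropin-releasing hormone (-3.29, at least 4.74-fold, adjusted p = 0.00469), were not above background in any culture and were marked, with B replicate 4 lying 2.76 and 1.36 above the other B arrays, in the direction of the XCR1- DC arrays on its slide. Neither was called after normexp (-0.89, adjusted p = 0.0732, and -0.83, adjusted p = 0.0594).

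The dependence on MoDC replicate 3 was then read over all genes with a symbol. Without it, 134 were called, of which 103 were among the 124 called with it, while 35.3% of all genes were called in that setting. All 30 genes with the largest differences were among those called in both. They were chosen as called genes with large differences and no overlap on any array, which favours this outcome. Of the 31 genes gained, 11 were higher in MoDC and 20 higher in XCR1- DC. Replicate 3 was the lowest culture for 44 of the 124 called genes, which is near the 1 in 3 that falls to each culture if none stands out. Other arrays also moved called differences by more than 1.5-fold without ending the call. Without MoDC replicate 1, *ABCB1* was 3.63, *CD247* -4.49, *IRF1* -3.87 and *MKI67* 2.95. Without MoDC replicate 2, *SHMT1* was 5.37, *SLCO2A1* 4.36, *LPL* 5.61, *TCF4* -5.15, *HYAL2* -4.54, *IRF1* -3.93 and *CRHR1* -2.45. Of the blood arrays, leaving out XCR1- DC replicate 1 took *CATHL3* to 8.0 and *HBB* to -7.60, leaving out replicate 2 took *HBB* to -5.96 and *EPO* to -4.61, and leaving out replicate 3 took *IL1A* to 8.99.

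Background correction changed further calls. After normexp, which adds an offset of 50 to the corrected signal, *BMP7* (-0.96, adjusted p = 0.0367), *STAT5A* (-0.65, adjusted p = 0.113), *FASLR* (0.76, adjusted p = 0.0431) and *DCN* (0.65, adjusted p = 0.219) lost their calls, as did *IL15*, *FST*, *BMP4*, *BMP6*, *SMAD1*, *IFNAR2*, *XCR1*, *ITGAL*, *MKI67*, *EPO* and *CRHR1*. The bounds given for *EDN1*, *CA1*, *SLC2A5*, *LGALS15*, *SLCO2A1*, *PYGM*, *CD3D*, *HBB* and *SLPI* exceeded the differences in that setting, which were 4.61, 2.77, 3.54, 1.68, 1.30, -2.96, -2.61, -2.47 and -1.25 on the log2 scale, and these genes were still called. Where only some arrays of the lower group were above background, the differences shrank as well, for *INHBA* to 8.25 after normexp and 9.41 in the series table, for *IL1A* to 6.01 and 7.18, for *SHMT1* to 2.88 and 4.75 and for *STAR* to 2.12 and 3.89, each still called. In the series table, *FST*, *BMP4*, *BMP6*, *SMAD1*, *IFNAR2*, *ID2*, *STAT5A*, *XCR1*, *ITGAL*, *BAX* and *ACTB* lost their calls, while *CXCL10*, *IL10*, *VEGFA*, *SCD*, *IL2RA*, *ITGB2*, *BAC5*, *CTLA4* and *EEF1A1* gained one, each in the direction of its difference before.

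The slide was examined in 2 ways, although a shift of the slide and a difference of that 1 B sample cannot be told apart. B replicate 4 lay at least 1 from the mean of the other B arrays, and outside their range, for 44 genes with a symbol and for 11.6% of all genes. Of the 124 called genes, 26 carried this mark, 16 higher in MoDC and 10 higher in XCR1- DC, and in 20 of them B replicate 4 was shifted in the direction of the XCR1- DC arrays on its slide. Over all called genes, with and without a symbol, 570 carried it, and in 479 of those the shift had that direction. With slide as a block, 8.30% of all genes were called (4.01% higher in MoDC and 4.29% higher in XCR1- DC), and 43 of the 124 genes were among them. These were 29 of the 68 higher in MoDC (42.6%, against 28.7% over all genes called higher in MoDC) and 14 of the 56 higher in XCR1- DC (25%, against 20.5%). No called gene with a symbol turned its direction. The block rests on B replicate 4 alone, and the median standard error rose from 0.45 to 0.64, which lowers the number of calls that this fit can make.

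Among the 30 genes with the largest differences, 13 of the 15 higher in MoDC and 8 of the 15 higher in XCR1- DC were called with the block. Those not called were *SLC2A5* and *CATHL3* in the direction of MoDC, and *TCF4*, *EPO*, *CD247*, *HYAL2*, *CRHR1*, *IRF1* and *ZFP36* in that of XCR1- DC. The differences of *TCF4*, *CD247*, *HYAL2* and *ZFP36* stayed about as large, at -4.18, -3.92, -4.14 and -3.57, whereas those of *IRF1*, *EPO* and *CRHR1* shrank to -2.35, -1.21 and -1.93. Among the other called genes given above, *TNF*, *ICAM1*, *FST*, *ACVR2B*, *BMP4*, *BMP6*, *SMAD1*, *ABHD5*, *SLC2A3*, *IFNAR2*, *ID2*, *STAT5A*, *LYZ*, *ITGAL*, *SLC11A1*, *LTF*, *PCNA*, *MKI67*, *BCL2L1*, *FASLR*, *BAX*, *DCN*, *TUBA1A* and *ACTB* lost their calls with the block. Relative to the B array of the same slide, the values of MoDC and XCR1- DC lay apart in the same direction for 96 of the 124 called genes with a symbol (77.4%) and for 79.2% of all called genes. Of the 30 genes, *SLC2A5*, *CATHL3* and *EPO* were the exceptions.

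**Figure D5:**
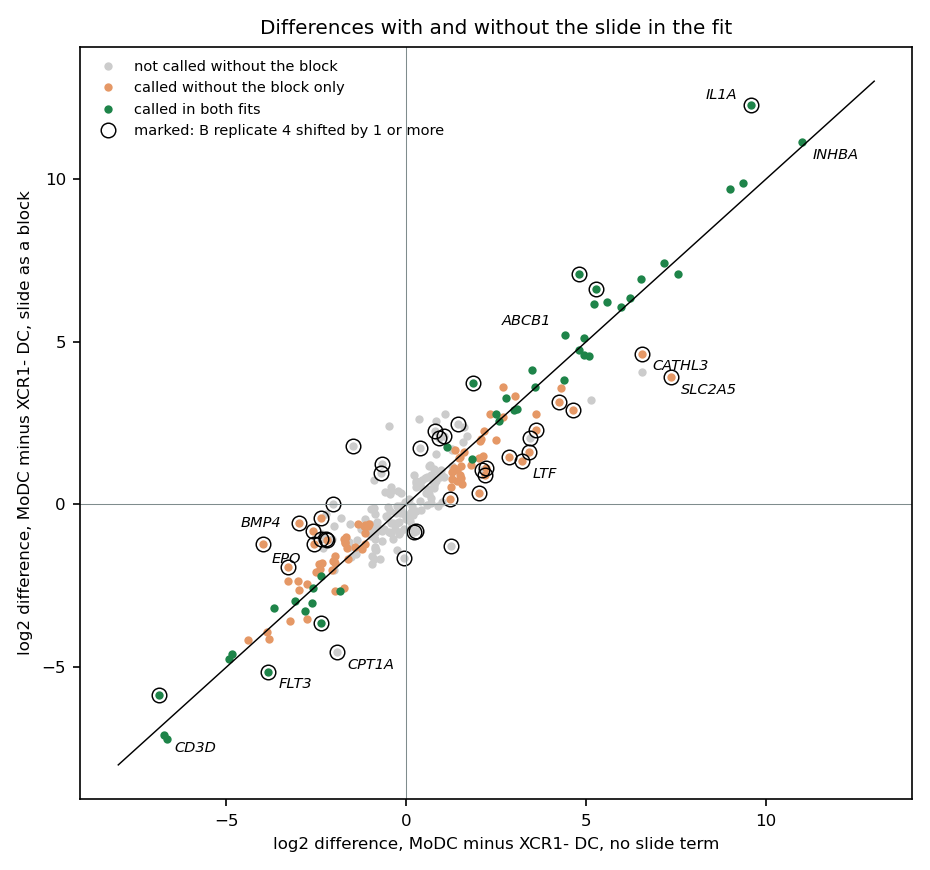
Log2 difference, MoDC minus XCR1- DC, without a slide term (horizontal axis) and with slide as a block (vertical axis) for the 270 genes with a symbol. Green points were called in both fits (43 genes), orange points only without the block, and rings mark the 44 genes with a shift of B replicate 4. *SLC2A5*, *EPO* and *BMP4* fall towards 0 with the block, while *FLT3*, *INHBA* and *CD3D* keep differences of -5.14, 11.14 and -7.08.

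Most tested genes had no symbol, and larger differences were found among them. Probe BL_OCA_X000256 was at 7.57, 7.31 and 9.03 on the MoDC arrays and -8.26, -7.54 and -7.02 on the XCR1- DC arrays, a difference of 15.58 ± 0.82 (SE; at least 15550-fold, adjusted p = 1.47e-08). Probe A_70_P006416 followed with 14.12 ± 1.07 (SE, adjusted p = 4.69e-07), and was above background on 1 XCR1- DC array. In the direction of XCR1- DC, probe BL_OTH_F000043 was at -4.99, -5.90 and -4.95 on the MoDC arrays and 4.54, 4.56 and 5.03 on the XCR1- DC arrays (-9.99 ± 0.76 SE, adjusted p = 4.69e-07), and probe A_70_P016851 differed by -9.25 ± 0.53 (SE, adjusted p = 3.36e-08). None of the 4 was marked for a slide shift, and all were called with slide as a block. Their genes are not named here.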

How the data were processed

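RNA of 17 samples was hybridised to one-colour Agilent arrays of 60-mer probes. The deposited files hold, for each spot, the intensity after background correction by Feature Extraction (10.7.3.1 on 12 arrays, 10.10.1.1 on the 5 of slide 4), the median raw intensity and background, and flags of 0 or 1. A log2 series table processed by the authors, whose normalization and centring are not stated in the sources used here, served as an alternative. All value columns were mapped to samples.

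Values were log2 of the processed signal minus the 75th percentile of non-control spots. Probes were kept where, in 1 or more of the 6 groups, each array had over 50% of the probe's spots well above background, flagged outliers left out, spots of a probe averaged, and 1 probe a gene, that with the highest mean, tested. limma 3.58.1 (R 4.3.3) fitted the means of all 6 groups over 17 arrays, with Benjamini-Hochberg adjustment over 11311 genes. The script was tested on simulated data. Alternatives were the scaling, background correction, filter, slide or replicate block, array weights, fitting only the 6 arrays, another fold and leaving out each array. The number of arrays limits the precision.

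Named were *FLT3*, *IL1B*, *ABCG2* and *ABCB1*, the 15 largest non-overlapping differences in each direction among genes with a symbol, members of gene lists in order of size, and the largest 2 probes without a symbol in each direction. Members and lists were chosen with earlier results of these data known, and *SOX9*, *CATHL1B*, *MHC2*, *AMH*, *ACVRL1*, *BMP1*, *BAMBI* and list members beyond the 4 largest were named after their values were seen. Some items are not reported here.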

Additional observations from a re-analysis of the deposited data

Results flagged for a closer look

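Of the 31 genes examined for an array far from the others among the 4 B arrays, 4 had one, as Dixon's ratio of the gap to the whole range passed its 95% critical value. Chance flags about 1 in 20 such groups. *CATHL3* was at -7.01, -7.54, -2.57 and -7.63 on B replicates 1 to 4, with replicate 3 the highest (ratio 0.877). *SLPI* was at -3.68, -4.53, -3.70 and -3.78, with replicate 2 the lowest (ratio 0.881). *EPO* was at -8.31, -7.82, -7.85 and -5.23, with replicate 4, the array on the slide of XCR1- DC, the highest (ratio 0.84). *AMHR2* was at -3.87, -5.83, -4.16 and -4.11, with replicate 2 the lowest (ratio 0.85). The groups of 3 arrays were not examined in this way.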

How the results depend on the processing

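*ABCG2*, *ABCB1*, *IL1B* and *FLT3* kept their direction and their call under every alternative that tested them, 70 values in all, although the filter on all 6 arrays dropped *ABCG2* and *ABCB1*. Their differences ranged from 5.61 to 9.68, 1.21 to 5.69, 5.66 to 7.52 and -5.14 to -3.05. The count of all called genes, 3782, moved to 2441 after normexp background correction and to 939 with slide as a block, and to 2850 to 4238 when 1 array was left out. Among genes with a symbol, 124 calls became 46 with slide as a block, 70 when a probe had to be above background on all 6 arrays, which tests fewer genes, and 104 to 134 when 1 array was left out. The share of all calls that were higher in MoDC, 39.4%, was 64.1% with the median of each array, 50.0% in the series table, 48.5% after quantile normalization, 48.3% with slide as a block, 47.1% after normexp, 46.9% with the filter on all 6 arrays, 41.6% when only the 6 arrays were fitted, 41% at a fold of 1.5, 37.3% with array weights, and 38.5% to 43.7% when 1 array was left out. The mark for a slide shift fell on 1308 genes, and on 671 in the series table. *GAPDH* reversed from -0.17 to 1.16 without MoDC replicate 3, and ranged down to -1.09 without replicate 1. Among the other alternatives for single named genes, 1908 kept their side of the threshold, 124 lost the call and 72 gained one. The cause of these moves was not tested.

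The main fit did not pair samples by replicate number. Deviations from the group means of arrays with the same number correlated at -0.15, 0.09 and -0.09 across genes. Of the 3 MoDC arrays, 1 correlated best with the XCR1- DC array of its own number. With the replicate block, 2218 genes were called, 37.6% of them higher in MoDC. The precision is limited by 3 arrays a group, by the single B array that links slide 4 to the others, and by signal near background, where 17 called genes with a symbol in the direction of MoDC and 12 in that of XCR1- DC had no array above background in the lower group.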
